A study of Mus musculus with 9 samples.

Results

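The genes described here are the nuclear-encoded genes of oxidative phosphorylation, measured in mouse liver. They were chosen by symbol alone: every listed feature was taken whose symbol began with Nduf, Uqcr, Sdha, Sdhb, Sdhc, Sdhd, Atp5 or Cox4 to Cox8 and did not hold the pseudogene mark "-ps". This gave 94 of 26388 features, and 7 symbols with that mark were left out. Of the 94 members, 44 belong to complex I, 8 to complex II, 8 to complex III, 17 to complex IV and 17 to complex V. Most are structural subunits (72), 7 are the catalytic core subunits of complex I, and 12 are assembly factors named Ndufaf or Sdhaf. Cox7a2l, a factor that joins complexes III and IV into supercomplexes, was kept with complex IV. Atp5s and Atp5sl carry the ATP synthase prefix but are no structural subunits of it. All 9 livers listed 91 of the members, 2 members had under 10 UMIs in the whole series, and 90 were among the 11321 genes that passed the filter on low counts for the comparisons of groups.

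Oxidative phosphorylation passes electrons from NADH (complex I) and succinate (complex II) through ubiquinone, complex III and cytochrome c to oxygen at complex IV, and the proton gradient built on the way drives ATP synthase, complex V. Complexes I, III, IV and V are built from nuclear and mitochondrial gene products together, while all subunits of complex II are nuclear. Hepatocytes are rich in mitochondria, and in rodents the hepatocytes near the portal vein are known for the more oxidative metabolism of the lobule.

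Drop-seq, a droplet method in which beads tag the RNA of each captured cell with a barcode and each molecule with a unique identifier (UMI), was run on the livers of 9 wild-type C57BL/6 males, 8 weeks old. They had been injected intravenously with AAVrh.10mCherry (mice 3, 6 and 9), AAVrh.10Null (mice 2, 5 and 8) or PBS (mice 1, 4 and 7), so n = 3 livers per group. AAVrh.10 is an adeno-associated virus serotype; neither the vector dose and promoter nor the interval from injection to sampling is stated in the labels. UMIs were summed per liver over all barcodes with at least 200 genes, which were 44898 of 48000, and levels are given as CPM, a gene's UMIs as counts per 1e6 UMIs of the liver. Drop-seq counts a molecule once at its 3' end, so levels were not divided by transcript length. In such sums, fewer cells of a type and less RNA per cell cannot be told apart.

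The libraries were unequal. The summed depth ran from 291338 UMIs in mouse 7 (PBS), which kept 550 of its 3600 barcodes, to 11220147 UMIs in mouse 1 (PBS). The share of barcodes with at least 3% of their UMIs from Malat1, a long RNA kept in the nucleus, was 4.4% to 9.05% in AAVrh.10mCherry livers, 4% to 23% in AAVrh.10Null livers and 1.6% to 15.8% in PBS livers. Barcodes ending in an undetermined base made up 0.0972% and 0.278% in mice 2 and 8 (AAVrh.10Null), 4.83% in mouse 7 and 25.4% to 27.5% in the other livers, so mice 2 and 8 stand apart from the rest of their group. mCherry reached 1797 to 7979 CPM in AAVrh.10mCherry livers, at most 22.7 CPM in AAVrh.10Null livers and at most 24.3 CPM in PBS livers. Libraries shared 1 to 10 barcodes in each of the 36 pairs, and doublets were not removed. The 6 hepatocyte markers summed to 78129.7 to 103945 CPM in AAVrh.10mCherry livers, 83176 to 98704 CPM in AAVrh.10Null livers and 101582 to 109409 CPM in PBS livers, beside at most 573 CPM for any of the 6 lists of endothelial, immune, stellate and bile duct markers in any liver. Red cell markers reached 2471 CPM in mouse 2. No marker of any list was at 0 in every liver.

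Every kept barcode held at least 1 UMI of a member, and the median per barcode was 17 (mouse 7) to 62 (mouse 1) UMIs. Together the 94 members took 3.15%, 2.98% and 2.91% of all UMIs in the 3 AAVrh.10mCherry livers, 2.86%, 2.61% and 2.84% in the 3 AAVrh.10Null livers and 3.04%, 3.42% and 3.73% in the 3 PBS livers. All 3 AAVrh.10Null livers lay below all 3 PBS livers and below all 3 AAVrh.10mCherry livers. The separation from AAVrh.10mCherry livers was lost without barcodes at or above 3% Malat1, where mouse 2 was at 3.09% and mouse 9 at 2.96%. With mitochondrial transcripts left out of the total, AAVrh.10Null livers overlapped both other groups. With all kept barcodes and all transcripts the group means were 3.01% ± 0.121, 2.77% ± 0.137 and 3.4% ± 0.342 (SD, n = 3 each) for AAVrh.10mCherry, AAVrh.10Null and PBS. The AAVrh.10mCherry livers overlapped the PBS livers, since mouse 1 (PBS) lay below mouse 3 (AAVrh.10mCherry). Complex I took 0.847% to 1.3% of UMIs over the 9 livers, complex IV 0.737% to 1.04%, complex V 0.618% to 0.823%, complex III 0.317% to 0.469% and complex II 0.0913% to 0.135%. The protein-coding transcripts of mitochondrial DNA, which supply the other subunits of complexes I, III, IV and V, ran from 1.45% in mouse 4 (PBS) to 5.06% in mouse 8 (AAVrh.10Null). Those of complex I took 0.873% to 2.9% and those of complex III 0.459% to 1.81%. Those of complex IV took only 0.118% to 0.352%, and those of complex V, mt-Atp6 and mt-Atp8, at most 9.89e-05% in any liver. The aligner and annotation are not given, so these low shares may not be RNA levels. The part of read mapping in them was not tested.

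**Figure D1:**
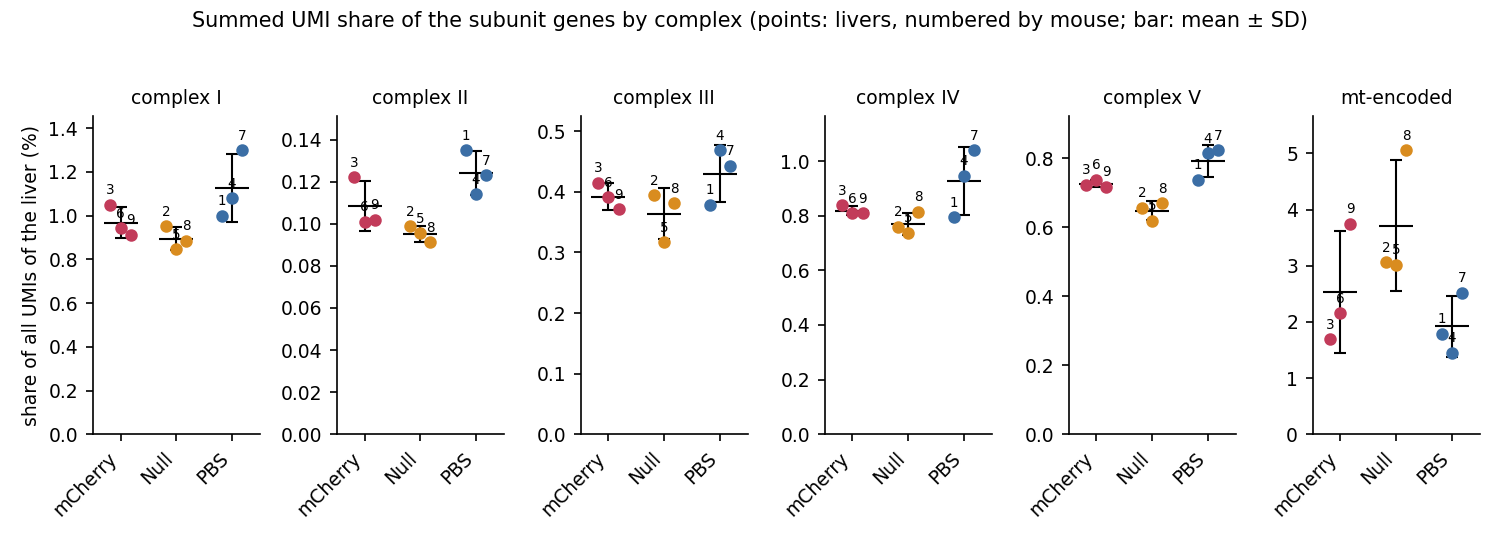
Share of all UMIs of a liver (%, axes from 0) summed over the nuclear members of each complex and over the protein-coding transcripts of mitochondrial DNA, for AAVrh.10mCherry, AAVrh.10Null and PBS livers; points are livers numbered by mouse, bars are the mean ± SD of 3. For complexes I, II and V all 3 AAVrh.10Null livers lie below all 3 PBS livers, while the mitochondrially encoded share of the 3 AAVrh.10Null livers (3.02% to 5.06%) lies above the PBS livers (1.45% to 2.52%). Without barcodes at or above 3% Malat1, which is not drawn, these groups overlap for complex I.

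Among structural subunits of complex I, Ndufa6 (mean 628 CPM over the 9 livers) and Ndufa13 (587 CPM) had the most UMIs; both are accessory subunits. Ndufa6 was at 653, 613 and 629 CPM in AAVrh.10mCherry livers, 519, 500.2 and 627 CPM in AAVrh.10Null livers and 633, 692 and 783 CPM in PBS livers. Its AAVrh.10Null livers lay below all PBS livers and overlapped the AAVrh.10mCherry livers. Without barcodes at or above 3% Malat1, mouse 8 (AAVrh.10Null, 662 CPM) lay above mouse 1 (PBS, 648 CPM). Of the catalytic core, which carries the flavin and the iron-sulfur clusters, Ndufs1 was at 92.4, 94.8 and 94.2 CPM in AAVrh.10mCherry livers, 67.2, 88.1 and 63.3 CPM in AAVrh.10Null livers and 103, 66.8 and 27.5 CPM in PBS livers. The PBS livers thus spanned all other livers for Ndufs1, with mouse 7 at the bottom.

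Complex II, succinate dehydrogenase, has 4 subunits, with 9854 (Sdhc) to 18788 (Sdhb) UMIs each. Sdha, the flavoprotein, was at 245, 209 and 227 CPM in AAVrh.10mCherry livers, 258, 218 and 193 CPM in AAVrh.10Null livers and 267, 250.2 and 127 CPM in PBS livers. Sdhb, the iron-sulfur subunit, was at 363, 311 and 323 CPM in AAVrh.10mCherry livers, 300.2, 304 and 334 CPM in AAVrh.10Null livers and 462, 326 and 457 CPM in PBS livers. For these 2 catalytic subunits the groups overlapped. The membrane anchors did not overlap between AAVrh.10Null and PBS livers. Sdhc was at 221, 171 and 159 CPM in AAVrh.10mCherry livers, 173, 158 and 138 CPM in AAVrh.10Null livers and 214, 241 and 189 CPM in PBS livers. Sdhd was at 253, 214 and 205 CPM in AAVrh.10mCherry livers, 153, 167 and 158 CPM in AAVrh.10Null livers and 276, 209 and 326 CPM in PBS livers.

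In complex III the small subunits Uqcrq, at 895 to 1442 CPM over the 9 livers, and Uqcr11, at 417 to 759.5 CPM, had the most UMIs. In complex IV these were Ndufa4, at 1095 to 1626 CPM, and Cox4i1, at 1067 to 1425 CPM. Ndufa4 was first placed in complex I and later found to belong to cytochrome c oxidase, where it is counted here. In complex V, Atp5j (coupling factor 6) was at 758 to 1045 CPM and Atp5b, the catalytic beta subunit, at 691 to 1039 CPM.

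Several complex IV subunits exist as tissue isoforms, and 1 isoform of each pair held nearly all UMIs. Cox6a1 was at 579 to 1002 CPM, while its heart and skeletal muscle isoform Cox6a2 had 3 UMIs in the whole series. Cox6b1 was at 615 to 954 CPM and the testis isoform Cox6b2 had 30 UMIs. Cox7a2 was at 466 to 641 CPM and the muscle isoform Cox7a1 at 1.89 to 7.88 CPM. Cox8a was at 342 to 697 CPM and its muscle isoform Cox8b had 1 UMI. Ndufa4 had 70632 UMIs and its paralog Ndufa4l2 had 42. Of the pair Cox4i1 and Cox4i2, Cox4i2 was not analysed here.

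Promoter windows from RefSeq (GRCm38.p6, 250 bases before to 50 after an annotated start) were matched to 80 members, 86 windows in all. Sites of NRF1, of ETS factors such as GABP and of YY1 are known from mammalian promoters of these genes, and a core of each was searched on both strands: GCGCATGCG for NRF1, CCGGAAG for ETS factors and AAGATGGCG for YY1. NRF1 letters were in 11.6% of member windows, against 3.74% of the windows of all genes tested in the group comparisons and 1.75% of all 32851 windows. ETS letters were in 24.4% of member windows, against 18.2% and 8.86%. YY1 letters were in 11.6%, against 3.31% and 1.4%. The NRF1 core is nearly its own reverse complement, so a match on one strand often overlaps a match on the other. These matches are descriptions of letters. Any of the 3 was in 40.7% of member windows, against 23.5% of the windows of tested genes and 11.4% of all windows.

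Shown next are 150 bases ending just before the start, 5′ to 3′ on the gene's strand, for 4 members described in the results, with the matches in capitals: Ndufaf4 and Sdhd are named in the comparisons of groups, Cox6a1 is the liver form of an isoform pair and Atp5k the member with the shortest transcript. Ndufaf4 (chr4:24897933-24898082, plus strand) holds the NRF1 core on both strands from 113 bases before the start, Sdhd (chr9:50603850-50603999, minus strand) an ETS core on the opposite strand from 46 bases before it, Cox6a1 (chr5:115348959-115349108, minus strand) an ETS core on the opposite strand from 16 bases before it and Atp5k (chr5:108434400-108434549, minus strand) the NRF1 core on both strands from 50 bases before it.
Ndufaf4: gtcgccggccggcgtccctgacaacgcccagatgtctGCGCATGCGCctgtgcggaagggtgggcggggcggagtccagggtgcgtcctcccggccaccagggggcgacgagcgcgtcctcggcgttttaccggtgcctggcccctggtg
Sdhd: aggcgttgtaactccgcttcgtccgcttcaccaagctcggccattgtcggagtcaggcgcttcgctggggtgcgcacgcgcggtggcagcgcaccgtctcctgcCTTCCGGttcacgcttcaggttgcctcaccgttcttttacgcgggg
Cox6a1: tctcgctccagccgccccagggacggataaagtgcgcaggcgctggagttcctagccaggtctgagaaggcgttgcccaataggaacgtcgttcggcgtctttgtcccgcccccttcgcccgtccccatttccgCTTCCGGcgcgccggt
Atp5k: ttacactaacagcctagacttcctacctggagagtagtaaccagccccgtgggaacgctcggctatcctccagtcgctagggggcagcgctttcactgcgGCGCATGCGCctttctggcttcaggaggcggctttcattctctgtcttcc

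The first comparison asked how livers given AAVrh.10Null differed from livers given PBS. Nearly all members had lower levels in AAVrh.10Null livers, by small amounts, and no member passed the test. Of the 90 members tested, 84 had a log2 fold change below 0, with a median of -0.31, while the median of all 11321 genes tested was -0.01 and 5802 of them lay below 0. The median was -0.32 for complex I (41 of 44 below 0), -0.42 for complex II (8 of 8), -0.27 for complex III (7 of 8), -0.26 for complex IV (13 of 13) and -0.30 for complex V (15 of 17).

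By edgeR's quasi-likelihood test with Benjamini-Hochberg adjustment 0 of 90 members passed, against 0.00883% of all genes, and 6 members had an unadjusted p under 0.05. DESeq2 and limma-voom also passed 0 members, with 9 and 8 at an unadjusted p under 0.05. Over all 11321 genes, edgeR, DESeq2 and limma-voom passed 1, 44 and 0, with 1456, 1062 and 1541 at an unadjusted p under 0.05. On the CPM scale, 28 members (31.1%) had all 3 AAVrh.10Null livers below all 3 PBS livers, against 6.87% of all genes tested, and 2 (2.22%) had them above, against 12.3% of all genes.

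The members with the smallest p among those lower in AAVrh.10Null livers were Sdhd, Uqcrc1 and Ndufs5. Sdhd, whose values are given above, had a log2 fold change of -0.76 (SE 0.24, adjusted p = 0.225 by edgeR). Uqcrc1, a core protein of complex III, was at 161, 166 and 184 CPM in AAVrh.10Null livers, against 253, 186 and 333 CPM in PBS livers. Its groups did not overlap, though mouse 4 (PBS) lay close to mouse 8 (AAVrh.10Null), and its log2 fold change was -0.59 (SE 0.24, adjusted p = 0.338 by edgeR). Without barcodes at or above 3% Malat1, mouse 8 (193 CPM) lay above mouse 4 (187 CPM). Ndufs5, an accessory subunit of complex I, was at 37.4, 57.4 and 57.1 CPM in AAVrh.10Null livers, against 65, 65.4 and 141 CPM in PBS livers, where mouse 7 stood far above the other PBS livers (log2 fold change -0.72, SE 0.32, adjusted p = 0.377 by edgeR).

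Among members higher in AAVrh.10Null livers, Atp5sl, the mouse gene that RefSeq names Dmac2 and whose human counterpart is known in complex I assembly, was at 31.6, 30.9 and 41 CPM, against 22.9, 18.8 and 10.3 CPM in PBS livers. The groups did not overlap, and the log2 fold change was 0.78 (SE 0.25, adjusted p = 0.245 by edgeR). Without the barcodes at or above 3% Malat1 the groups overlapped. AAVrh.10Null livers were then at 18.5, 28.4 and 28.4 CPM, and PBS livers at 19.1, 18.1 and 8.65 CPM. Ndufaf4, a complex I assembly factor, was at 111, 89.7 and 83.7 CPM in AAVrh.10Null livers, against 74, 70.9 and 61.8 CPM in PBS livers. Its groups did not overlap, with those Malat1-rich barcodes or without them (log2 fold change 0.40, SE 0.20, adjusted p = 0.42 by edgeR). Atp5l, a membrane subunit of ATP synthase, was next in this direction, with a log2 fold change of 0.09 and overlapping groups.

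Malat1 and mitochondrial transcripts moved with this comparison, and its values changed with the barcodes and livers included. Malat1 had a log2 fold change of 0.90 (adjusted p = 0.514 by edgeR). Without the barcodes at or above 3% Malat1 the members' median was -0.20, with 76 of 90 below 0. By edgeR 1 member then had an unadjusted p under 0.05, beside 792 of all 10871 genes. Without those barcodes the summed share was still lower in all 3 AAVrh.10Null livers (3.09%, 2.64% and 3.02%) than in the PBS livers (3.1%, 3.44% and 4.06%), though mouse 2 (AAVrh.10Null) and mouse 1 (PBS) nearly met. Complex I then overlapped (mouse 2 at 1.03%, mouse 1 at 1.02%), while complexes II and V did not. With mt- transcripts left out of the total, the summed shares of AAVrh.10Null livers (3.12%, 2.86% and 3.44%) overlapped those of PBS livers (3.28%, 3.54% and 4.11%). The log2 ratio of the group means was then -0.22, against -0.29 with them, complexes I and II still did not overlap, and the members' median was -0.29 with 84 of 90 below 0. Without mice 2 and 8, mouse 5 was left as the only AAVrh.10Null liver and the members' median was -0.25. With all barcodes, also those under 200 genes, which are mostly of mouse 7, the median was -0.55.

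Other genes of the pathway were followed in lists. Of 13 mitochondrially encoded transcripts on the list 8 were tested. All 8 had log2 fold changes above 0, from 0.52 to 1.43 with a median of 0.91, the direction opposite to most nuclear members. mt-Cytb, the complex III subunit cytochrome b, was at 11840.5, 11344 and 18064 CPM in AAVrh.10Null livers, against 6589, 4585 and 8732 CPM in PBS livers, with no overlap (log2 fold change 1.05, SE 0.36, adjusted p = 0.266 by edgeR). Proteins of the mitochondrial ribosome, which translates the mitochondrial transcripts, had 72 of 77 members below 0 (median -0.24). Of 32 assembly factors outside the chosen prefixes 29 lay below 0 (median -0.28), of 16 genes of the tricarboxylic acid cycle 13 (median -0.10), and of 15 regulators such as Ppargc1b and Tfam 6 (median 0.09). Cox16, an assembly factor of complex IV, was at 26.6, 30.5 and 33.6 CPM in AAVrh.10Null livers, against 41.3, 43.5 and 89.2 CPM in PBS livers, without overlap. None of these lists had a gene that passed the edgeR test, and the counts at an unadjusted p under 0.05 were 5 mitochondrially encoded transcripts, 1 mitochondrial ribosomal protein gene, 2 assembly factors, 1 gene of the tricarboxylic acid cycle and 1 regulator. Of all 11321 genes, 1456 were under that limit by edgeR. Ppargc1b, a coactivator of mitochondrial genes, was at 15.2, 9.68 and 30 CPM in AAVrh.10Null livers, against 8.82, 6.94 and 13.7 CPM in PBS livers, and its groups overlapped. Cycs, the electron carrier cytochrome c, was at 107, 83.4 and 106 CPM in AAVrh.10Null livers, against 134, 125 and 189 CPM in PBS livers, without overlap (log2 fold change -0.59, SE 0.23, adjusted p = 0.314 by edgeR).

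The second comparison set AAVrh.10mCherry livers against the same 3 PBS livers, so the PBS values are shared with the first. The members again lay mostly below 0, and none passed. Of 90 members 85 were below 0 with a median of -0.30, against 5457 of 11321 genes and a median of 0.02. The medians were -0.32, -0.32, -0.25, -0.36 and -0.24 for complexes I, II, III, IV and V. By edgeR's quasi-likelihood test 0 members passed after adjustment, against 0% of all genes, and 2 had an unadjusted p under 0.05. DESeq2 passed 0 members with 4 at an unadjusted p under 0.05, and limma-voom 0 with 9. Over all genes edgeR, DESeq2 and limma-voom passed 0, 2 and 0, with 744, 487 and 819 at an unadjusted p under 0.05.

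In CPM, 7 members (7.78%) had all AAVrh.10mCherry livers below all PBS livers, against 2.37% of all genes, and 2 (2.22%) above, against 14.4%. The 7 were Atp5d, Atp5g1, Atp5o, Cox4i1, Cox5b, Cox6b1 and Ndufb10. Atp5g1, which encodes subunit c of the ATP synthase rotor, was at 381, 446 and 313 CPM in AAVrh.10mCherry livers, against 501, 446 and 518 CPM in PBS livers, so mice 6 and 4 met at 446 CPM to 3 digits (log2 fold change -0.49, SE 0.23, adjusted p = 0.717 by edgeR). Cox4i1 was at 1246, 1093 and 1072 CPM in AAVrh.10mCherry livers, against 1274, 1425 and 1311 CPM in PBS livers (log2 fold change -0.36). Uqcrc1 (-0.57) and the core subunit Ndufs8 (-0.52) had the smallest p of all members, but their groups overlapped. The 2 members above without overlap were Ndufaf4 and Atp5sl, with log2 fold changes of 0.24 and 0.29. Without barcodes at or above 3% Malat1 Atp5sl overlapped, with mouse 6 (AAVrh.10mCherry) at 17.8 CPM and mouse 1 (PBS) at 19.1 CPM.

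With library totals as the only scaling the members' median was -0.17 (77 of 90 below 0), while the median of all genes moved to 0.16. The members' median minus that of all genes was -0.33 with library totals and -0.32 with the scaling used elsewhere. The median was -0.39 without mouse 3, -0.24 without mouse 6 and -0.23 without mouse 9. It was -0.52 with all barcodes and -0.26 without barcodes at or above 3% Malat1. The 8 mitochondrially encoded transcripts tested were above 0 (median 0.30), and 69 of 77 mitochondrial ribosomal protein genes were below 0 (median -0.15). No gene of the other lists passed.

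Between AAVrh.10mCherry and AAVrh.10Null livers the members were balanced on the edgeR scale, with 39 of 90 below 0 and a median of 0.01, against 0.00 for all genes. No member passed edgeR's adjusted test, against 0.0265% of all genes, and 0 had an unadjusted p under 0.05 (DESeq2 0 and 0, limma-voom 0 and 1). Of all 11321 genes, 825, 514 and 974 had an unadjusted p under 0.05 by edgeR, DESeq2 and limma-voom. In CPM, 14 members (15.6%) had all AAVrh.10mCherry livers above all AAVrh.10Null livers, against 12% of all genes, and 1 (1.11%) below, against 4.55%. With library totals only, 11 of 90 lay below 0 with a median of 0.12, but that of all genes was 0.11. The members' median minus that of all genes was 0.01 under both scalings. Without barcodes at or above 3% Malat1 60 of 90 lay below 0 (median -0.06), and without mouse 3 the median was -0.09.

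Sdhd and Sdhaf1, an assembly factor of complex II, were among the members with no overlap. Sdhaf1 was at 19.7, 23.7 and 16 CPM in AAVrh.10mCherry livers, against 12.5, 14.4 and 11.9 CPM in AAVrh.10Null livers (log2 fold change 0.50, SE 0.25, adjusted p = 0.696 by edgeR). Atp5h, subunit d of the ATP synthase stalk, was at 578, 771 and 641 CPM in AAVrh.10mCherry livers, against 412, 510.1 and 525 CPM in AAVrh.10Null livers (log2 fold change 0.34). Atp5sl was the 1 member in the other direction, at 27.3, 23.3 and 28.9 CPM in AAVrh.10mCherry livers, against 31.6, 30.9 and 41 CPM in AAVrh.10Null livers (log2 fold change -0.49, SE 0.24, adjusted p = 0.688 by edgeR). Without barcodes at or above 3% Malat1 its groups overlapped, with mouse 9 (AAVrh.10mCherry) at 26.7 CPM and mouse 2 (AAVrh.10Null) at 18.5 CPM. Atp5l (-0.36) and Uqcrc2, a core protein of complex III (-0.24), were next in that direction and overlapped. The mitochondrially encoded transcripts had a median of -0.66, with 7 of 8 below 0.

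**Figure D2:**
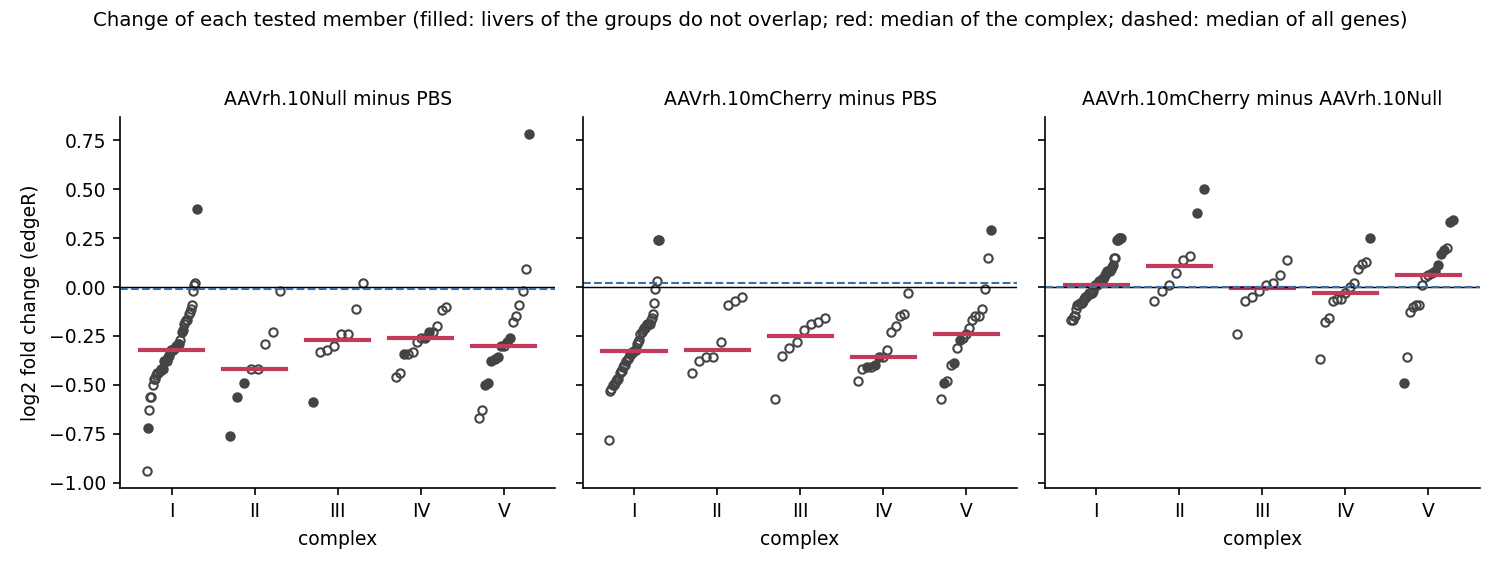
edgeR log2 fold change (y) of each of the 90 tested members by complex (x) in the 3 comparisons of groups; filled points are members whose livers do not overlap between the groups, red lines the median of a complex and dashed lines the median of all 11321 genes. Most points lie below 0 in AAVrh.10Null minus PBS (84 of 90) and AAVrh.10mCherry minus PBS (85 of 90), comparisons that share their PBS livers, and they lie on either side of 0 in AAVrh.10mCherry minus AAVrh.10Null.

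Barcodes rich in Malat1 were compared with the other barcodes of the same liver, since their share differed between livers. In Malat1-high barcodes (at least 3% of UMIs) the members took 2.04%, 1.77% and 1.96% of UMIs in AAVrh.10mCherry livers, against 3.24%, 3.1% and 2.96% in the other barcodes. In AAVrh.10Null livers they took 2.11%, 1.91% and 2.03%, against 3.09%, 2.64% and 3.02%. In PBS livers they took 2.08%, 2.25% and 2.44%, against 3.1%, 3.44% and 4.06%. The share was lower in all 9 livers, by log2 ratios of -0.81 (mouse 6) to -0.47 (mouse 5). The median depth was 531 to 2200 UMIs per Malat1-high barcode and 376 to 1984 per other barcode, and Malat1 was at 36375 to 72447 CPM in the Malat1-high sums.

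Nearly the whole set moved. Of 88 members tested with the liver as a block, 81 were lower in Malat1-high barcodes by edgeR's quasi-likelihood test with Benjamini-Hochberg adjustment, against 37.4% of all 7567 genes, and 2 were higher, against 34.1%. The median log2 fold change was -1.07, against -0.06 for all genes. By complex the median was -1.10 for complex I, -1.09 for complex III, -1.10 for complex IV and -1.08 for complex V. It was -0.87 for complex II, -0.85 for the complex I core and -0.56 for the assembly factors of complexes I and II. The transcripts of mitochondrial DNA fell as well, 8 of 8 with a median of -0.96 by edgeR, as did 63 of 75 mitochondrial ribosomal protein genes (median -0.85). Of 16 genes of the tricarboxylic acid cycle 8 fell and 1 rose (median -0.27), and of 12 regulators 2 fell and 4 rose (median 0.19).

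Ndufb4, an accessory subunit of the complex I membrane arm, had the largest fall. It was at 11.1 to 46 CPM (median 27.2) in Malat1-high barcodes and 30.6 to 285 CPM (median 64.3) in the others, lower in 9 of 9 livers (log2 fold change -1.42, SE 0.15, adjusted p = 5.49e-10 by edgeR). Its highest value in other barcodes, 285 CPM, was that of mouse 7, and no other liver passed 75.6 CPM. Ndufa4 was at 635 to 949 CPM (median 804) in Malat1-high barcodes and 1141 to 1704 CPM (median 1382) in the others, with no overlap over the 9 livers (log2 fold change -1.21, SE 0.08, adjusted p = 9.58e-15 by edgeR). Ndufb6, at 116 to 297 CPM against 300.2 to 421 CPM, did not overlap either (log2 fold change -1.22).

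The 2 members that rose were Atp5sl and Ndufaf4. Atp5sl was at 111, 78.3 and 72.5 CPM in Malat1-high barcodes of AAVrh.10mCherry livers, against 20, 17.8 and 26.7 CPM in the others. In AAVrh.10Null livers it was at 73.5, 88.9 and 99.6 CPM, against 18.5, 28.4 and 28.4 CPM. In PBS livers it was at 87, 53.1 and 16.6 CPM, against 19.1, 18.1 and 8.65 CPM. It was higher in 9 of 9 livers, with a log2 fold change of 1.50 (SE 0.13, adjusted p = 3.46e-12 by edgeR). Ndufaf4 was at 80.7 to 201 CPM (median 139) in Malat1-high barcodes and 56.2 to 89.7 CPM (median 82) in the others, higher in 9 of 9 livers (log2 fold change 0.31, SE 0.12, adjusted p = 0.0185 by edgeR). With a Malat1 share of at least 5% as the limit, or with no filter on low counts, Ndufaf4 did not pass (adjusted p = 0.131 and 0.848 by edgeR). Neat1, another RNA kept in the nucleus, was higher by 2.42 on the log2 scale, and Alb, the hepatocyte product albumin, had a log2 fold change of -0.99.

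With library totals only the median of the members was -0.62, with 77 (87.5%) lower and 4 (4.55%) higher. Of all genes 18.7% were then lower and 50.6% higher, and their median moved to 0.39. With Malat1 itself left out of the counts the members' median was -1.06. Members near 0 turned with the scaling: Ndufs1 was lower by edgeR (log2 fold change -0.29, adjusted p = 0.0211) although its CPM was higher in Malat1-high barcodes of 6 livers and lower in 3. The share of mitochondrial transcripts was lower in the Malat1-high barcodes of 8 livers and higher in those of mouse 7 (16.5%, against 7.55%). Its part in these results was not tested.

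**Figure D3:**
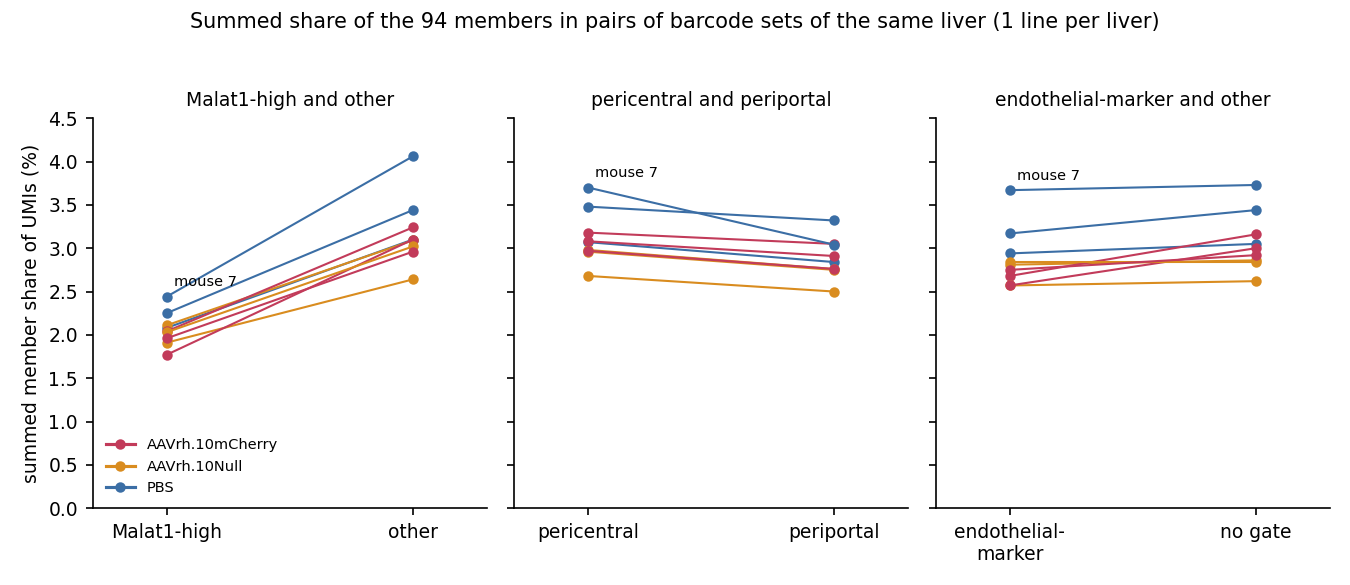
Share of UMIs (%, axis from 0) taken by the 94 members in pairs of barcode sets of the same liver: Malat1-high and other barcodes, pericentral and periportal barcodes, and endothelial-marker barcodes and barcodes in no marker gate; each line is a liver, coloured by group. The line rises to the right in all 9 livers in the first panel and falls in all 9 in the second, most steeply for mouse 7.

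To follow the members along the liver lobule, barcodes with at least 5 UMIs of zonation markers were ranked within their liver by the pericentral share of those UMIs, and the upper 25% and lower 25% were summed. These sets are ranges of a score and not cell types, and in the 9 livers 7 to 605 barcodes lay within 2 percentage points of the upper limit. The set-defining gene Cyp2e1 differed by 1.83 and Cyp2f2 by -1.14 on the log2 scale, as the ranking requires. The members took a larger share in pericentral barcodes in all 9 livers, with 3.18%, 3.08% and 2.97% in AAVrh.10mCherry livers, against 3.05%, 2.91% and 2.76% in periportal barcodes. In AAVrh.10Null livers the shares were 2.98%, 2.68% and 2.96%, against 2.76%, 2.5% and 2.75%. In PBS livers they were 3.07%, 3.48% and 3.7%, against 2.84%, 3.32% and 3.04%. The log2 ratio was 0.06 to 0.11 in 8 livers and 0.28 in mouse 7, which had 42 and 45 barcodes in the sets.

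Of 88 members tested, 47 were higher in pericentral barcodes by edgeR's quasi-likelihood test with Benjamini-Hochberg adjustment, against 10.8% of all 6650 genes, and 1 was lower, against 12.3%. The changes were small, with a median log2 fold change of 0.15 beside 0.00 for all genes. In complex IV 10 of 12 members rose, in complex III 6 of 8, in complex I 23 of 43, in complex V 7 of 17 and in complex II 1 of 8. The complex I core had 1 of 7 higher (Ndufv2) and the assembly factors 0 of 11. Of those 11, 3 had an unadjusted p under 0.05 by edgeR, beside 2280 of all 6650 genes. Of the catalytic subunits, Sdha (-0.02), Sdhb (0.05), Atp5a1 (-0.04) and Atp5b (0.04) did not pass (adjusted p = 0.56 to 0.826 by edgeR).

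Ndufa6 was at 489 to 899 CPM (median 654) in pericentral barcodes and 458 to 674 CPM (median 563) in periportal ones, and it was higher in 9 of 9 livers (log2 fold change 0.25, SE 0.05, adjusted p = 0.000292 by edgeR). Ndufb4 was higher in 9 of 9 livers (log2 fold change 0.36, SE 0.09, adjusted p = 0.00169 by edgeR), at 34.3 to 337 CPM against 24.6 to 61.4 CPM, and the 337 CPM were those of mouse 7. Cox7a2l was higher in 7 of 9 livers (log2 fold change 0.29). Atp5sl was the 1 member that fell, at 12.5 to 37.4 CPM (median 25.2) in pericentral barcodes against 0 to 59.9 CPM (median 33.3) in periportal ones. It was lower in 8 of 9 livers, and mouse 7 had 37.4 CPM against 0 (log2 fold change -0.62, SE 0.13, adjusted p = 0.000184 by edgeR). Both values of mouse 7 lay under 3 UMIs, in sums of 26704 and 54907 UMIs.

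Malat1 moved with the zonation sets too, with a log2 fold change of -0.83, and Malat1-high barcodes made up 1.71% to 14.2% of the pericentral and 2.25% to 35.6% of the periportal sets. Without those barcodes 31 of 87 members (35.6%) were higher and 2 (2.3%) lower, with a median of 0.13, beside 7.9% and 11% of all genes. With library totals only 20 (22.7%) were higher and 2 (2.27%) lower, beside 6.12% and 16.3% of all genes. With at least 10 zonation marker UMIs 13 (15.1%) were higher and 2 (2.33%) lower, beside 6.73% and 11.5%. Without the liver as a block 0 passed in edgeR and 2 had an unadjusted p under 0.05, beside 0.12% of all genes higher and 0.316% lower. The transcripts of mitochondrial DNA had a median of -0.14, and 1 of 8, mt-Co1 of complex IV, was lower (log2 fold change -0.20, adjusted p = 0.0465 by edgeR). Of 75 mitochondrial ribosomal protein genes 18 were higher and 1 lower (median 0.15). Of 16 genes of the tricarboxylic acid cycle 0 passed in edgeR, and the median was 0.06. An unadjusted p under 0.05 by edgeR was found for 2 of them, beside 2280 of all 6650 genes.

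Barcodes with UMIs of at least 3 of 12 endothelial markers and no other marker set were compared with barcodes in no set. They numbered 660 against 43582, and they were not clean endothelial cells: Alb stood at 20521 to 35002 CPM in the 8 livers other than mouse 7, against 34193 to 48156 CPM in barcodes of no set. The members took 2.68%, 2.57% and 2.75% of UMIs in endothelial-marker barcodes of AAVrh.10mCherry livers, against 3.16%, 3% and 2.92% in barcodes of no set. In AAVrh.10Null livers the shares were 2.81%, 2.57% and 2.84%, against 2.86%, 2.62% and 2.84%. In PBS livers they were 2.94%, 3.17% and 3.67%, against 3.05%, 3.44% and 3.73%. The log2 ratios ran from -0.24 (mouse 3) to -0.00 (mouse 8).

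By edgeR's quasi-likelihood test with Benjamini-Hochberg adjustment 24 of 76 members were lower in endothelial-marker barcodes, against 27.1% of all 2564 genes, and 1 was higher, against 22.6%. With all 9 livers and the filter on low counts, the members fell about as often as all genes. Their median was -0.24, beside -0.07 for all genes, and it was largest for complex V (-0.40, with 8 of 13 lower). Ndufa10, a complex I accessory subunit, was at 113 to 249.8 CPM (median 194) in endothelial-marker barcodes and 250.0 to 473 CPM (median 279.7) in those of no set, lower in 9 of 9 livers (log2 fold change -0.65, SE 0.15, adjusted p = 0.000398 by edgeR). Atp5f1, subunit b of ATP synthase, was also lower in 9 of 9 livers (log2 fold change -0.59, adjusted p = 8.89e-05 by edgeR), as was Sdhc (-0.56, adjusted p = 0.00715). Cox7a2l was the 1 member that rose (log2 fold change 0.42, adjusted p = 0.038 by edgeR), at 93.1 to 254 CPM (median 149) against 86.6 to 137 CPM (median 116), higher in 8 of 9 livers.

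This count changed with the livers and with the genes entered, and the part of each was not tested. With no filter on low counts and mouse 7 kept, 78 of 94 members (83%) were lower, beside 9.96% of all genes. Without mouse 7, whose endothelial-marker set held 7418 UMIs, 70 of 89 members (78.7%) were lower and 0 higher with a median of -0.63, and Cox7a2l was at 0.01. All genes tested then numbered 8629, of which 20.9% were lower and 13.5% higher, with a median of -0.18. Without mouse 6 14 members (18.4%) were lower, beside 21.3% of all genes. Malat1 had a log2 fold change of 0.40 between these sets (adjusted p = 0.0387 by edgeR). Without barcodes at or above 3% Malat1, 20 of 75 members (26.7%) were lower and 1 (1.33%) higher, beside 28.5% and 25% of all genes. The medians were then -0.19 and -0.05. With library totals only 13 (17.1%) were lower and 2 (2.63%) higher with a median of -0.09, beside 21.1% and 28.7% of all genes and a median of 0.06. The transcripts of mitochondrial DNA fell (7 of 7, median -0.91), while Atpif1, the inhibitor of ATP synthase, rose (log2 fold change 1.60, SE 0.19, adjusted p = 3.44e-10 by edgeR).

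**Figure D4:**
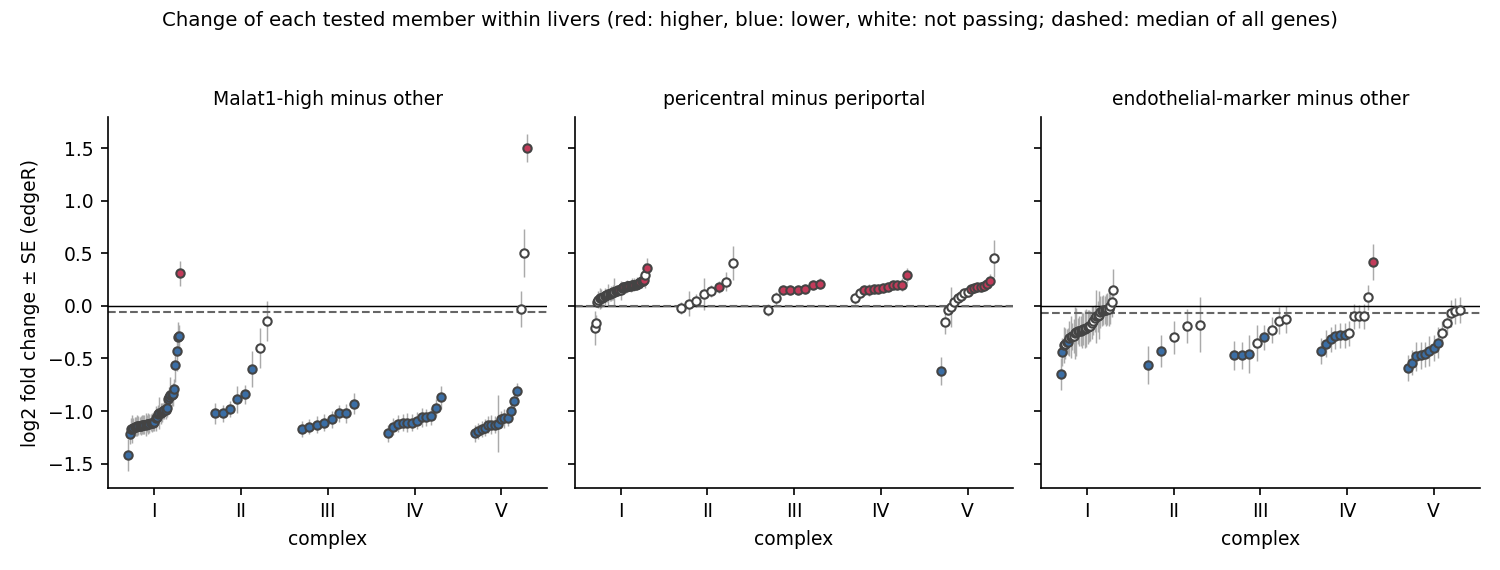
edgeR log2 fold change with its SE (y) of each tested member by complex (x) within livers, for Malat1-high minus other, pericentral minus periportal and endothelial-marker minus other barcodes; red and blue points passed the adjusted test as higher and lower, white points did not pass, and dashed lines are medians of all genes. In the first panel Atp5sl (1.50) and Ndufaf4 (0.31) are the red points above a band near -1.07. In the second the red points lie close above 0, and Atp5sl (-0.62) is the blue point below it.

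Across the marker sets, pooled over livers with exact 95% Poisson intervals that cover counting error only, Atpif1 was at 294 CPM (231 to 368) in Kupffer or macrophage marker barcodes, 172 CPM (144 to 204) in endothelial-marker barcodes, 109 CPM (72.3 to 157) in stellate or fibroblast and 94.4 CPM (59.8 to 142) in T or NK marker barcodes, against 48.8 CPM (46.9 to 50.7) in barcodes of no set. Livers contributed unequally to each set, and over the livers with more than 10000 UMIs in a set the ranges overlapped: 92.2 to 638 CPM in Kupffer or macrophage, 37.6 to 274 CPM in endothelial, 27.9 to 185 CPM in stellate or fibroblast and 0 to 219.6 CPM in T or NK marker barcodes, against 32.1 to 116 CPM in barcodes of no set. The pooled values therefore give no order between the sets. All 94 members together were at 27421 CPM in Kupffer or macrophage, 28099 CPM in endothelial, 28532 CPM in T or NK and 27480.1 CPM in stellate or fibroblast marker barcodes, against 29967 CPM in barcodes of no set. Cox7a2l was at 217 CPM (163 to 284) in T or NK, 178 CPM (130.1 to 237) in Kupffer or macrophage and 173 CPM (145 to 205) in endothelial-marker barcodes, against 115 CPM (112 to 118) in barcodes of no set. Its ranges over livers overlapped too, at 79.5 to 368, 91 to 329.8 and 93.1 to 254 CPM in these sets, against 86.6 to 137 CPM. In stellate or fibroblast marker barcodes it was at 105 CPM (69.1 to 153), which includes the level of barcodes of no set. Cox6a2, Cox6b2 and Cox8b had 0 UMIs in all 4 marker sets, for which the intervals allow up to 4.8 CPM in endothelial-marker barcodes and up to 15.1 CPM in T or NK marker barcodes. Ndufa4l2 had 2 UMIs among stellate or fibroblast marker barcodes (7.77 CPM, 0.941 to 28.1) and 40 UMIs in barcodes of no set (0.778 CPM, 0.556 to 1.06). Cox7a1 had 4 UMIs in T or NK marker barcodes (16.4 CPM, 4.47 to 42), against 4.57 CPM (4.01 to 5.2) in barcodes of no set. Alb was at 20575 to 31990.1 CPM in the 4 marker sets, so each also held hepatocyte RNA, whose part in these levels was not tested.

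The members' variation from liver to liver was set against transcript length. For each of the 89 members with an annotated length, the deviation of log2(CPM + 1) from its mean over the livers was compared with the median length of its transcripts. Across genes, Spearman's rho was 0.46, -0.06 and -0.05 in AAVrh.10mCherry livers, -0.16, 0.48 and -0.48 in AAVrh.10Null livers and 0.64, -0.50 and -0.34 in PBS livers. The AAVrh.10Null and the PBS groups each held livers of opposite order, while 2 of the AAVrh.10mCherry livers were near 0. Mice 3 (AAVrh.10mCherry), 5 (AAVrh.10Null) and 1 (PBS) had the members with long transcripts relatively high. The genes share a library and are not independent replicates, so no p is given. In 1123 other genes at 100 CPM or more, rho lay between -0.29 (mouse 4) and 0.29 (mouse 2), and it was -0.12 in mouse 1. Across members, rho between transcript length and the log2 fold change within livers was 0.60 for Malat1-high, -0.38 for pericentral and -0.22 for endothelial-marker barcodes (87, 87 and 76 members).

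**Figure D5:**
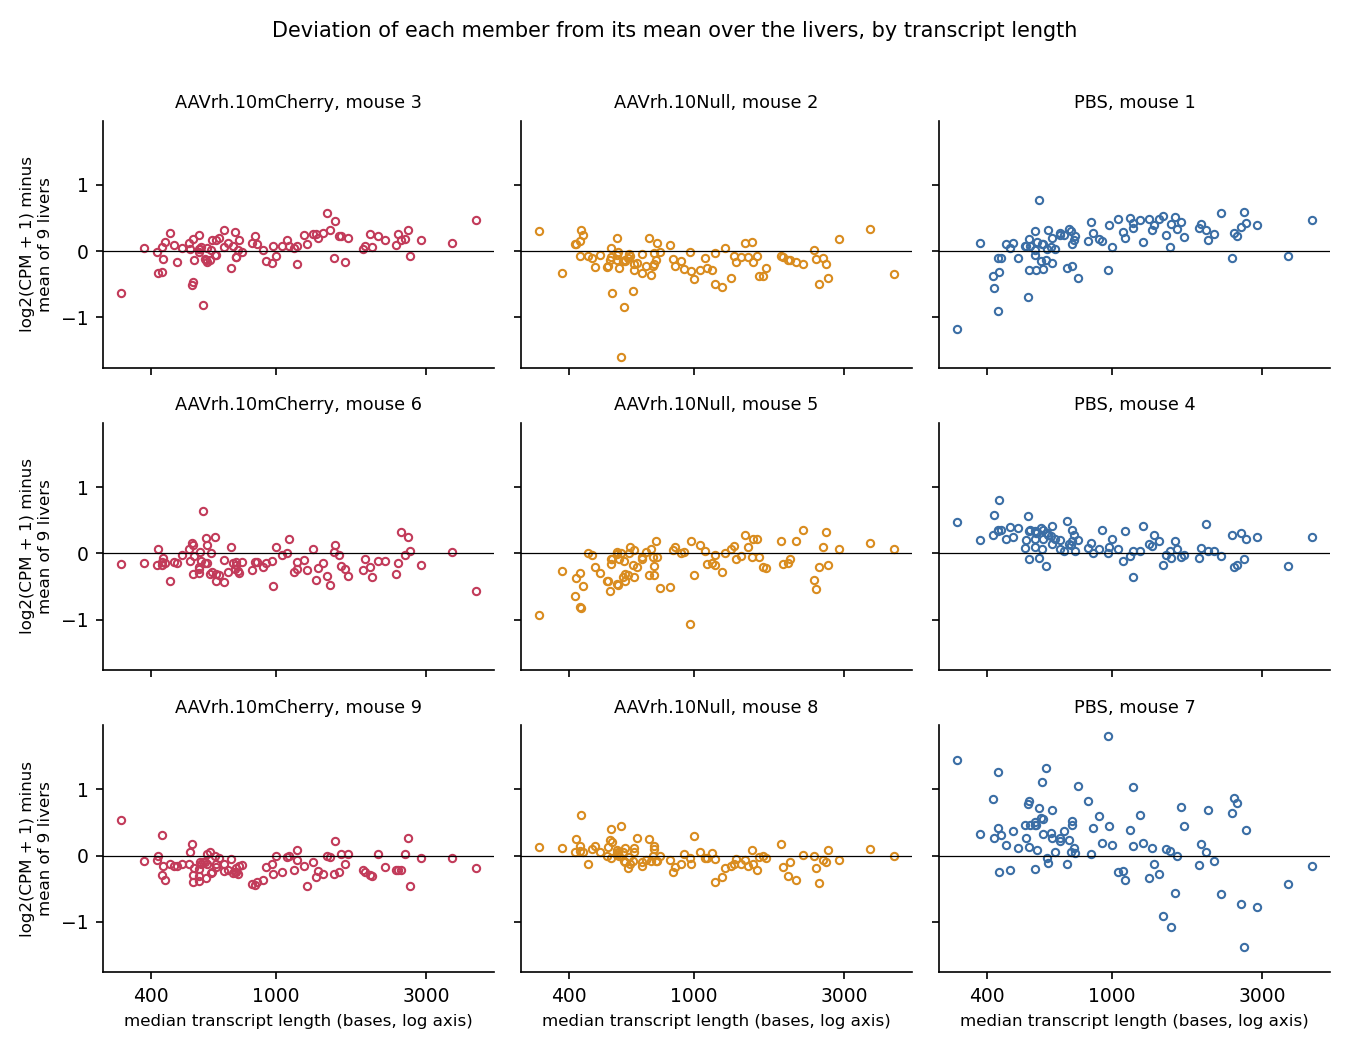
Deviation of log2(CPM + 1) of each of 89 members from its mean over the 9 livers (y) against median transcript length in bases (x, log axis), for AAVrh.10mCherry, AAVrh.10Null and PBS livers from left to right. The cloud rises with length in mouse 1 (rho 0.64) and falls in mouse 4 (rho -0.50), both PBS.

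The ratio of UMIs of the 23 shortest members (up to 576 bases) to those of the 23 longest (1451 bases or more) was 2.1, 2.28 and 2.33 in AAVrh.10mCherry livers, 2.36, 2.01 and 2.51 in AAVrh.10Null livers and 1.73, 2.6 and 2.71 in PBS livers. Atp5k, subunit e of ATP synthase and the shortest member at 322 bases, was at 158, 236 and 378 CPM in AAVrh.10mCherry livers, 315, 122 and 248 CPM in AAVrh.10Null livers and 101, 328 and 659 CPM in PBS livers. The PBS livers held its lowest and its highest value. Ndufa3, a short accessory subunit of complex I (433 bases), followed it with 219.5, 259 and 357 CPM in AAVrh.10mCherry livers, 313, 147 and 276 CPM in AAVrh.10Null livers and 134, 334 and 645 CPM in PBS livers. Ndufv1, the flavin-bearing core subunit (1528 bases), had the smallest SD over the livers of these 89 members, at 148, 172 and 139 CPM in AAVrh.10mCherry livers, 182, 145 and 155 CPM in AAVrh.10Null livers and 153, 155 and 165 CPM in PBS livers. That SD was 0.12 on the log2 scale, beside 0.82 for Atp5k and 0.75 for Ndufb4. Some long members varied too, such as Ndufs1 (2626 bases, SD 0.57), and some short ones were steady, such as Ndufc2 (576 bases, SD 0.17).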

How the data were processed

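Liver cells of 9 mice were profiled by Drop-seq with Illumina sequencing, per the labels' protocols. The authors deposited a table of UMI counts by gene and barcode for each liver. Per the deposited readme, reads were demultiplexed with bcl2fastq 2.19; mm10 and Seurat are named in the submitters' processing notes. The aligner, the annotation, the use of strand and the barcode threshold are not given in the sources used here, so overlapping genes and near-identical copies may share counts.

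Barcodes with at least 200 genes were kept and their counts summed per liver (291338 to 11220147 UMIs). Genes passing filterByExpr were tested with edgeR 4.0.16 (glmQLFit, glmQLFTest, TMM factors) in R 4.3.3, all 9 livers in 1 fit, with Benjamini-Hochberg adjustment over all genes tested and a threshold of 0.05. The SE of a log2 fold change is its size divided by the square root of F. Sets within livers (Malat1 share of at least 3%; upper and lower 25% of the pericentral share among barcodes with at least 5 zonation marker UMIs; at least 3 markers of 1 cell type list and of no other) were fitted with the liver as a block, since both sums come from the same animal. DESeq2 1.42.0, limma 3.58.1, other scalings, filters, barcode limits and left-out livers were alternatives. Python 3.11.15 with numpy 2.4.6, pandas 2.3.3, scipy 1.17.1 and matplotlib 3.10.9 gave sums, intervals, motifs and plots. The fits were tested on simulated data.

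Named genes were the 2 structural subunits per complex with the highest mean level, all Sdh subunits, the 3 members per direction with the smallest p in each comparison of groups, the 3 per direction with the largest change among those passing within livers, isoform pairs, and some of the 2 genes per pathway list with the smallest p. Others, such as Ndufa3, Ndufv1 and Atp5k, were chosen after their values were seen. The members and all lists were chosen with earlier results of these data known. Each mouse is 1 sample, so p-values of the comparisons of groups rest on the spread between mice. Within livers the mouse is the block, and p-values rest on the spread of the within-liver difference over mice. Counting intervals and floors (3 UMIs, 0.267 to 10.3 CPM) cover counting error only. Doublets were not called.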

Additional observations from a re-analysis of the deposited data

Results flagged for a closer look

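In mouse 7 (PBS) the members' share was higher in pericentral than in periportal barcodes by a log2 ratio of 0.28, while the other 8 livers lay between 0.06 and 0.11. Its gap to the nearest liver was 0.768 of the whole range, above Dixon's 95% critical value of 0.493 for 9 samples, a limit that chance passes in about 1 of 20 groups. The sets of mouse 7 held 42 pericentral and 45 periportal barcodes with 26704 and 54907 UMIs, the fewest of all livers. Malat1 was at 7115 CPM in its pericentral and 23731 CPM in its periportal set, and the part of Malat1, or of the low depth, in this value was not tested.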

How the results depend on the processing

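No member passed in any of the 22 alternatives of each comparison of groups. The member median for AAVrh.10Null minus PBS (-0.31) was -0.55 with all barcodes, -0.38 with at most 20% mitochondrial UMIs and -0.20 without Malat1-high barcodes, and -0.33 to -0.25 with 1 liver left out. For AAVrh.10mCherry minus PBS (-0.30) it was -0.17 with library totals only, -0.52 with all barcodes and -0.39 to -0.23 with 1 liver left out. For AAVrh.10mCherry minus AAVrh.10Null (0.01) it was 0.12 with library totals only, -0.06 without Malat1-high barcodes and -0.09 to 0.06 with 1 liver left out. The summed share ratio of that comparison (0.12) was 0.21 without mice 2 and 8 and 0.21 without mice 2, 7 and 8, and 0.08 to 0.14 with 1 liver left out. The ratio was -0.37 to -0.22 for AAVrh.10Null minus PBS and -0.25 to -0.10 for AAVrh.10mCherry minus PBS with 1 liver left out.

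The Malat1-high median (-1.07) was -0.95 with relative log expression factors, -1.33 with no filter on low counts, -0.62 with library totals only and -1.08 to -1.04 without mouse 7 or mouse 6. Between zones (48 members passing), 15 passed with at least 10 zonation marker UMIs and 22 with library totals only. Of the members, 15.1% and 22.7% were then higher, beside 6.73% and 6.12% of all genes, and 2.33% and 2.27% lower, beside 11.5% and 16.3%. Without mouse 6 or 7, 50 to 52 passed. Then 55.7% and 58% of members were higher, beside 10.1% and 11.8% of all genes, and 1.14% were lower each time, beside 11.4% and 12.4%. Of the endothelial-marker comparison (25), 78 passed with no filter, 15 with library totals only and 14 to 70 without mouse 6 or 7. With no filter 83% of members were lower and 0% higher, beside 9.96% and 6.76% of all genes. With library totals only 17.1% were lower and 2.63% higher, beside 21.1% and 28.7%. Without mouse 6 18.4% were lower and 0% higher, beside 21.3% and 20.6%, and without mouse 7 78.7% and 0%, beside 20.9% and 13.5%. The member median of the endothelial-marker comparison (-0.24) was -0.91 with no filter, -0.09 with library totals only and -0.63 to -0.20 without mouse 7 or 6. Cox7a2l there turned to -0.25 with no filter (adjusted p = 0.574 by edgeR), and it passed in 2 of 9 alternatives. Library totals within livers, and zonation and endothelial sets without Malat1-high barcodes, were chosen after seeing the data. The cause of these shifts was not tested.

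No paired analysis was possible because mouse numbers are not shared between the groups. Within livers the liver was the block. With no replicate block, 80 members passed for Malat1-high, 0 between zones (2 at an unadjusted p under 0.05 by edgeR) and 13 for endothelial-marker barcodes. In the same order 88.6%, 0% and 17.1% of members were lower, beside 31.7%, 0.316% and 15.6% of all genes. Higher were 2.27%, 0% and 0% of members, beside 30.6%, 0.12% and 17.2% of all genes. Depth limits mouse 7 most: 3 UMIs there are 10.3 CPM.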
